A study of Mus musculus with 6 samples.

Results

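The ion channels that carry fast excitation and fast inhibition between neurons were examined in the cortex of mice 14 days after stroke, in animals given short-chain fatty acids (SCFA) or a control. Members were the protein-coding gene symbols of the AMPA (Gria), NMDA (Grin), kainate (Grik) and delta (Grid) glutamate receptors and of the GABA-A receptor (Gabr), matched by name in the deposited table after its rows had been paired with symbols. The rule gave 37 genes of 24554 genes and unmatched rows. Of these 33 are described here, with 4 AMPA, 7 NMDA, 5 kainate, 1 delta and 16 GABA-A receptor subunits, and counts of members below refer to them. The SCFA group held 3 libraries from cortex of male C57BL/6J mice that had SCFA in the drinking water for 4 weeks, begun at 6 to 8 weeks of age, and the control group held 3 libraries from mice of the same strain and sex with a salt-matched control over the same time. Both groups, controls included, also drank antibiotics in 5% sucrose, which the labels name as Metronidazol, Neomycin, Ampicillin plus Vancomycin, and all animals were 15 weeks old when compared. The labels name neither the acids, nor the hemisphere, nor how near the lesion the tissue lay. The design text gives 3 per group, and each library was taken as 1 animal.

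Ionotropic glutamate receptors are assemblies of subunits around a cation pore that opens when glutamate binds. AMPA receptors carry most of the fast current, NMDA receptors pass calcium and need glycine as well as glutamate, and kainate receptors act on both sides of the synapse. GABA-A receptors are chloride channels of mixed subunits, usually of alpha, beta and gamma or delta type, and they are the target of benzodiazepines and many anaesthetics. In cortex around a stroke these receptors are studied because glutamate drives early injury and because tonic GABA-A current affects later recovery.

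The 33 genes together had between 17811 and 28680 counts per library, 0.341% to 0.369% of the counts outside the largest row of the table, a row without a gene name that took 35.0% to 55.3% of a library. Total counts ran from 9275252 to 13862756. On the first principal component control 2 stood apart from the other 5 libraries, and on the second SCFA 2 did. Markers of cortical excitatory neurons summed to 2689 to 3878 CPM (counts scaled to 1 common library size with TMM factors), with none of 8 at 0 in all libraries. Markers of striatal projection neurons, which lie beneath the cortex, summed to 191, 589.5 and 220.0 CPM in SCFA 1 to 3, against 269, 177 and 176 CPM in controls 1 to 3. SCFA 2 was thus far above the rest on these, and its 323 counts of Adora2a and 1895 of Penk stood against at most 85 and 360 in any other library, while Drd1 had 11 counts there and at most 10 elsewhere. Another list set the groups apart. Markers of exocrine pancreas, a tissue foreign to brain, summed to 1.15, 0.275 and 0.671 CPM in SCFA 1 to 3, against 190.3, 337 and 32.5 CPM in controls 1 to 3. All 8 passed the test as lower with SCFA and are among the 9 genes of the whole table that did. The list was chosen with earlier results of these data known, so that its passing is no separate result.

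A low-count filter kept 21 of the 33 genes, and no subunit passed the test between SCFA and control animals. None of the 21 passed an adjusted p of 0.05 in edgeR's quasi-likelihood test, where 0.0835% of all 11969 genes tested did (0.00835% higher and 0.0752% lower with SCFA). The lower share is 9 genes, of which 8 are the pancreas markers. At an unadjusted p under 0.05 there were 0 of 21, against 5.76% of all genes tested. DESeq2 and limma-voom likewise called 0 of 21, and each gave 1 of 21 at an unadjusted p under 0.05, against 6.46% and 6.73% of all genes tested. The log2 fold changes of SCFA over control lay between -0.33 and 0.34, with 6 above 0 and 15 below. Their median was -0.11, where the median of all genes tested was 0.0085 and 49.1% of these lay below 0. Adjusted p-values of the 21 in edgeR's test ran from 0.864 to 0.995. The test sets the difference between groups against the spread of these 6 libraries within their groups.

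**Figure D1:**
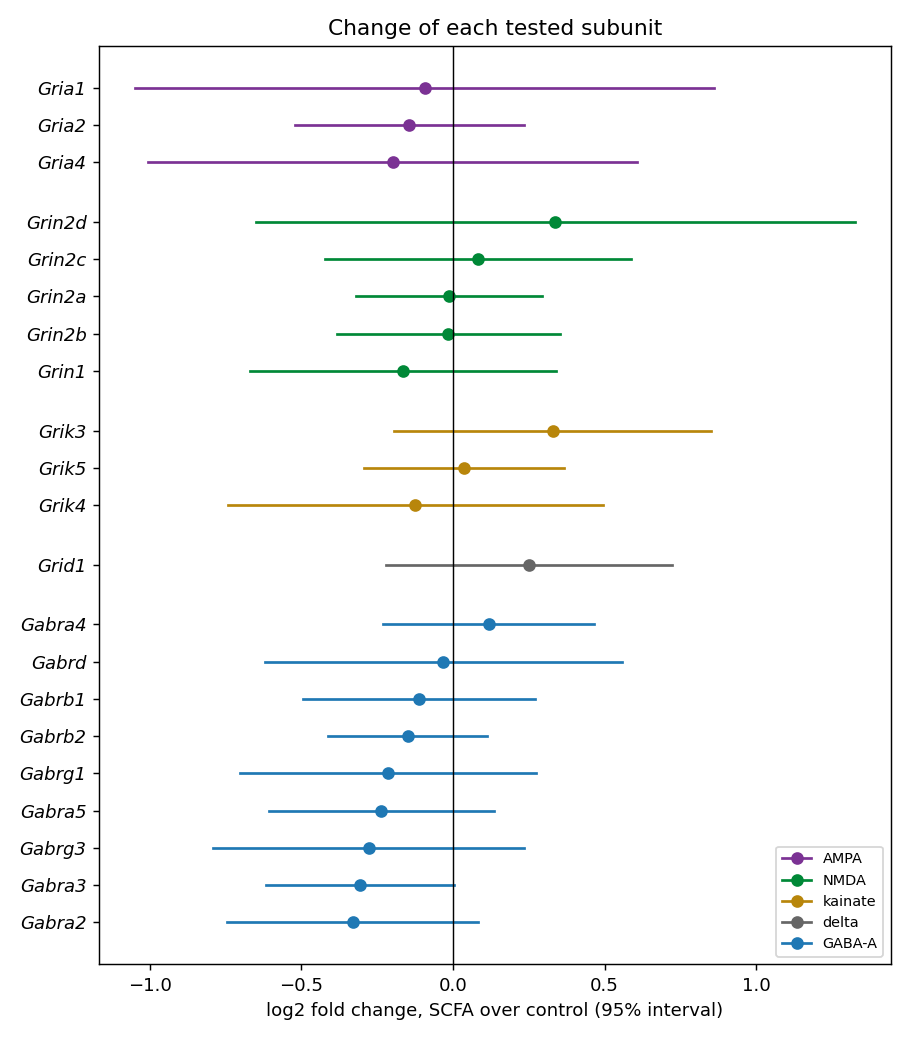
Log2 fold change of SCFA over control for each of the 21 subunits tested, ordered by family and size, with its 95% interval from edgeR's fit as a horizontal line. Each interval spans 0, and 8 of the 9 GABA-A subunits lie left of it.

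The subunits differ in how many rows of the table they have. The table counts reads per RefSeq transcript, and 23 of the 33 genes have a single row while 10 have several. Of genes with 1 row 17 of 23 passed the filter, and of genes with several rows 4 of 10. Whether the number of rows plays a part in this was not tested. Each of the 49 rows was matched by its RefSeq number to a transcript of GENCODE M21 (GRCm38, the same assembly as mm10), which showed which bases a row does not share with another row of the same gene. The gene models that the submitters counted on were not used here and may differ. For Grik2 the row with 6431 bases of its own in these models was at 0. For Gria2, 2 rows matched to the same transcript and so without bases of their own held 3226 and 1359 of its 5345 counts. Whether reads shared by rows were counted is thus not settled by these models. Statements below on what sets rows apart rest on these models. Levels of different genes are compared below only per kilobase of that model and only among genes with 1 row.

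Per length, GABA-A subunits were at the top. Gabrb2, a beta subunit common in cortical GABA-A receptors, averaged 139.7 CPM per kilobase over the 6 libraries (range 127 to 148) and was above the gene next to it in 6 of 6 libraries. Next came Gabra3 at 61.0, the kainate subunit Grik5 at 48.8, and the NMDA subunits Grin2b and Grin2a at 39.1 and 33.2 CPM per kilobase. Grin2b was above Grin2a in 6 of 6 libraries, while Gabra3 over Grik5 and Grik5 over Grin2b each held in 5. The Grin2b and Grin2a models are unlike, with 4446 of 7484 and 4392 of 4395 bases coding. In SCFA 1 these 2 genes were close, at 33.9 and 32.8 CPM per kilobase, so their order may rest on the models. Gabra4 and Gabra5 had 25.9 and 23.0 CPM per kilobase and changed places between libraries (Gabra4 above in 4 of 6). Gabrd, the subunit that takes the place of gamma in receptors outside the synapse, had 12.3. The levels of Grik3, Gabra2, Grin2c, Grid1 and Gabrg1 lay close together, at 6.91, 6.46, 5.43, 5.24 and 5.15 CPM per kilobase, and their order was not the same in every library. Gabrb1 (4.16), Grik4 (3.88), Gabrg3 (2.28) and Grin2d (1.26 CPM per kilobase) were lower still.

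**Figure D2:**
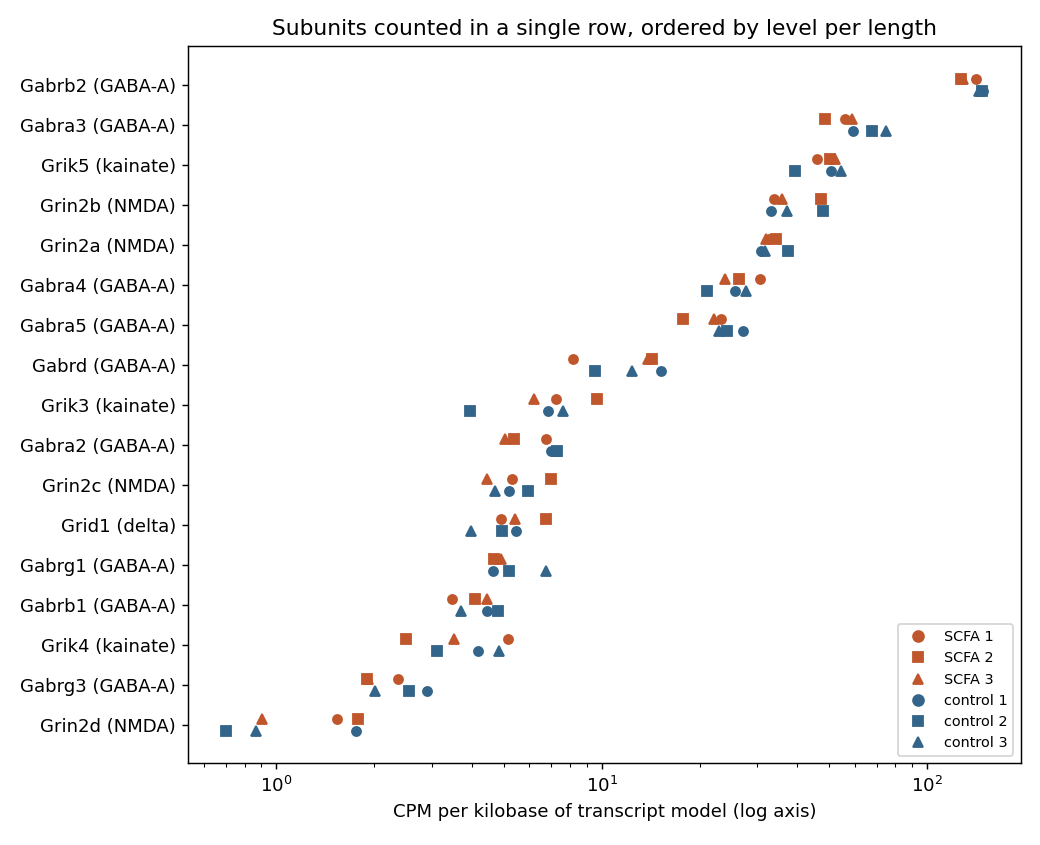
CPM per kilobase of transcript model on a log axis for the 17 subunits with a single row that passed the filter, from the highest (Gabrb2, mean 139.7) to the lowest (Grin2d, mean 1.26). Each symbol is a library, with SCFA libraries above control libraries in a row of the plot.

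The AMPA receptor genes did not pass the test. Gria2 encodes the subunit that, after editing of its RNA, keeps calcium out of the channel. It measured 82.1, 64.2 and 77.1 CPM in SCFA 1 to 3, against 94.9, 67.2 and 84.3 CPM in controls 1 to 3, a log2 fold change of -0.14 (SE 0.175, 95% interval -0.52 to 0.23), and the groups overlapped. Gria1, whose subunit is inserted during synaptic potentiation, measured 5.96, 6.61 and 5.07 CPM in SCFA 1 to 3, against 4.22, 9.58 and 5.11 CPM in controls 1 to 3, with control 2 the highest, a log2 fold change of -0.094 (SE 0.442, 95% interval -1.05 to 0.86). The subunit gene Gria4, known from fast-spiking interneurons, measured 8.06, 5.85 and 6.64 CPM in SCFA 1 to 3, against 6.16, 8.08 and 9.33 CPM in controls 1 to 3, a log2 fold change of -0.20 (SE 0.374, 95% interval -1.0 to 0.61). Summed over the family the level was 96.2, 76.7 and 88.8 CPM in SCFA 1 to 3, against 105, 84.9 and 98.8 CPM in controls 1 to 3. Gria3 had 0 counts in all 6 libraries, and in the models matched to its 4 rows no base belongs to 1 row alone, and this 0 was not read as absence.

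Every AMPA subunit gene carries a pair of exons of equal length, flip and flop, of which a transcript uses 1, and the choice sets how fast the channel desensitizes. These exons are shown because they are what tells several AMPA rows apart, and capitals mark the positions at which flip and flop of the same gene differ (36 of 115 in Gria1, 36 in Gria2 and 31 in Gria4). They were read 5′ to 3′ on the coding strand from GENCODE M21 transcripts.
Gria1 flip exon: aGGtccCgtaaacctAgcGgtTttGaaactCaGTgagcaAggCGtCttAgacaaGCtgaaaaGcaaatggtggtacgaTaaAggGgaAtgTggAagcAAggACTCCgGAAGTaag
Gria1 flop exon: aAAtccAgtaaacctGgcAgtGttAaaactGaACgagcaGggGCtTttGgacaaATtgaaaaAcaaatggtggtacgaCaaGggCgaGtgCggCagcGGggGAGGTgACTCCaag
Gria2 flip exon: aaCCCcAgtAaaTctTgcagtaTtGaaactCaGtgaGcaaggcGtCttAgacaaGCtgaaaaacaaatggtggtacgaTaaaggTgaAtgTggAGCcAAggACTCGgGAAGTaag
Gria2 flop exon: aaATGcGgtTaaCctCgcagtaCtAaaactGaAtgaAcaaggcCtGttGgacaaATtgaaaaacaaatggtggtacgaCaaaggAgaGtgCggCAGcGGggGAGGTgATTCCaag
Gria4 flip exon: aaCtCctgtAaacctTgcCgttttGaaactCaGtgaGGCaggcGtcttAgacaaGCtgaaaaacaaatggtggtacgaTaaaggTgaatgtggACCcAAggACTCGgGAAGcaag
Gria4 flop exon: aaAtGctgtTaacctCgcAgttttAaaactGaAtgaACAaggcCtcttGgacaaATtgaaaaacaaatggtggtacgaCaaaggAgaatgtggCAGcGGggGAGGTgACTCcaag
In GRCm38 the flip and flop exons lie at chr11:57310608-57310722 and chr11:57309769-57309883 for Gria1 (plus strand), at chr3:80690404-80690518 and chr3:80691320-80691434 for Gria2 (minus strand), and at chr9:4427030-4427144 and chr9:4432773-4432887 for Gria4 (minus strand), all coding.

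Of the 407 counts of Gria1, 394 lay in row NM_008165, whose only unshared bases in these models are the flop exon, and 13 in a row set apart by 125 bases at the 5′ end. The flip exon of Gria1 is shared by the other 2 rows. The third row of Gria4, set apart by 590 bases at its 3′ end, had 59, 49 and 42 counts in SCFA 1 to 3, against 46, 51 and 46 in controls 1 to 3. Of the others, row NM_001113180 alone holds the flop exon and row NM_019691 alone holds the flip exon. The flop row had 16, 22 and 38 counts in SCFA 1 to 3, against 26, 14 and 44 in controls 1 to 3, and the flip row had 2, 14 and 9 counts in SCFA 1 to 3, against 4, 5 and 3 in controls 1 to 3. Flop made up 75.2% of both rows over the SCFA libraries (76 of 101 counts, 95% Wilson interval 66.0% to 82.6%) and 87.5% over the controls (84 of 96, 79.4% to 92.7%). Flop was the larger part in each of the 6 libraries. The lowest share was 61.1% in SCFA 2 (interval 44.9% to 75.2%), the library with the high striatal markers, and without it the SCFA share was 83.1%. These intervals cover counting error only, and no test was made of this difference. For Gria2, row NM_001083806 is the only one with the flip exon, and it took 15.2, 17.6 and 14.5% of the Gria2 counts in SCFA 1 to 3, against 12.8, 9.28 and 14.6% in controls 1 to 3. The other 2 rows of Gria2 were matched to 1 and the same transcript with the flop exon, so that this percentage is no flip to flop ratio.

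The 5 tested NMDA receptor genes did not pass either, and their groups overlapped for each gene. Grin2b encodes a glutamate-binding subunit that dominates early in life, and Grin2a one that joins later. Grin2b measured 254, 352 and 268 CPM in SCFA 1 to 3, against 249, 358 and 277 CPM in controls 1 to 3, a log2 fold change of -0.015 (SE 0.171, 95% interval -0.38 to 0.35). It was high in SCFA 2 and control 2 alike, the 2 libraries that stood apart, and close in the other 4. Grin2a measured 144, 152 and 141 CPM in SCFA 1 to 3, against 136, 165 and 139 CPM in controls 1 to 3, a log2 fold change of -0.013 (SE 0.142, 95% interval -0.32 to 0.29), which was the narrowest interval of the family. Grin2c, known from cerebellum and glia, measured 26.0, 34.3 and 21.7 CPM in SCFA 1 to 3, against 25.4, 29.1 and 23.0 CPM in controls 1 to 3 (0.083, SE 0.234), and its sign turned to -0.11 without SCFA 2. Grin2d, a subunit of interneurons, measured 8.37, 9.71 and 4.92 CPM in SCFA 1 to 3, against 9.57, 3.81 and 4.71 CPM in controls 1 to 3, with the 3 highest values in SCFA 2, control 1 and SCFA 1 (0.34, SE 0.457). Its log2 fold change was 0.095 without control 2 and 0.85 without control 1. Summed over the 7 NMDA genes the level was 452, 568 and 455 CPM in SCFA 1 to 3, against 444, 574 and 471 CPM in controls 1 to 3, a mean of 492 ± 66.4 CPM with SCFA and 496 ± 69.0 in controls (SD, n = 3 each).

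Grin1 encodes the glycine-binding subunit that every NMDA receptor needs, and it measured 19.6, 20.5 and 19.9 CPM in SCFA 1 to 3, against 23.3, 18.0 and 25.9 CPM in controls 1 to 3, a log2 fold change of -0.16 (SE 0.234, 95% interval -0.67 to 0.34). It has 3 rows that share most of their bases, and its level cannot be set against those of Grin2a and Grin2b. Row NM_008169 had 167, 254 and 222 counts in SCFA 1 to 3, against 252, 128 and 215 in controls 1 to 3. Row NM_001177656 had 20, 43 and 45 counts in SCFA 1 to 3, against 35, 28 and 43 in controls 1 to 3. In the matched model its only unshared bases are the N1 cassette of the extracellular domain, an optional exon that alters the response to protons and zinc. It is printed for that reason in capitals with 15 bases of the transcript on each side, and lies at chr2:25311343-25311405 (GRCm38, minus strand, coding).
Grin1 N1 cassette: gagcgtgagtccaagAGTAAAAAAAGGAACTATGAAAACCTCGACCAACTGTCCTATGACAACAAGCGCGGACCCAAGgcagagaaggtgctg
The glycine-binding subunit genes Grin3a and Grin3b, whose products lower the calcium permeability of the channel, were too low to test. Grin3a had 0 counts, with 2 rows of which 1 has no base of its own. Grin3b, with a single row, had 0, 1 and 3 counts in SCFA 1 to 3, against 5, 10 and 11 in controls 1 to 3, so that the groups did not overlap at a level where 3 counts stand for 0.207 to 0.346 CPM.

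Among kainate receptors, Grik5 and Grik4 encode the high-affinity subunits that need a partner to form a channel, and Grik1, Grik2 and Grik3 the partners. Grik5 measured 172, 189 and 196 CPM in SCFA 1 to 3, against 191, 148 and 204 CPM in controls 1 to 3, a log2 fold change of 0.036 (SE 0.153, 95% interval -0.29 to 0.37), and control 2 was the lowest. Grik3 measured 65.0, 86.8 and 55.4 CPM in SCFA 1 to 3, against 61.3, 35.2 and 68.2 CPM in controls 1 to 3, a log2 fold change of 0.33 (SE 0.242, 95% interval -0.19 to 0.85). Its highest library was SCFA 2 and its lowest control 2, and without these 2 libraries its log2 fold change was -0.11. Grik4 measured 30.2, 14.7 and 20.7 CPM in SCFA 1 to 3, against 24.6, 18.4 and 28.4 CPM in controls 1 to 3, with the highest and the lowest value both among SCFA libraries (-0.12, SE 0.287). Grik1 and Grik2 had 27 and 18 counts over all 6 libraries from 2 rows each and were not tested. The family summed to 268, 291 and 273 CPM in SCFA 1 to 3, against 278, 201 and 302 CPM in controls 1 to 3, with control 2 the lowest.

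Delta receptors resemble the others in sequence but act as synaptic organizers that bind cerebellins. Grid1 measured 28.1, 38.7 and 30.9 CPM in SCFA 1 to 3, against 31.2, 28.2 and 22.8 CPM in controls 1 to 3, a log2 fold change of 0.25 (SE 0.218, 95% interval -0.22 to 0.72). SCFA 2 was the highest and control 3 the lowest, and the groups overlapped.

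GABA-A receptor subunits had fold changes mostly on one side of 0, though no member passed. Of 9 tested, 8 had a log2 fold change below 0, with a median of -0.21 and a range of -0.33 to 0.12, while 7 of 12 tested glutamate receptor subunits lay below 0 with a median of -0.014. For Gabra2, Gabra3 and Gabrb2 each SCFA library lay below each control, 3 of 9, where this held for 5.74% of all genes tested. Without SCFA 2, the library with the high striatal markers, 8 of 9 lay below 0. In the opposite direction the separation of groups held for 0 of 9, against 6.42% of all genes. The lowest adjusted p was 0.864, for Gabra3. With library totals in place of TMM factors 5 of 9 lay below 0, with a median of -0.033, and this scaling moved the median of all genes to 0.18. Values of subunits that share neurons are not independent of each other.

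Gabrb2 measured 563, 508 and 514 CPM in SCFA 1 to 3, against 592, 589.7 and 577 CPM in controls 1 to 3, a log2 fold change of -0.15 (SE 0.122, 95% interval -0.41 to 0.11); the lowest control lay above the highest SCFA library. Gabra3, an alpha subunit more common in deep layers and early life, measured 205, 178 and 215 CPM in SCFA 1 to 3, against 218, 249 and 274 CPM in controls 1 to 3, a log2 fold change of -0.31 (SE 0.144, 95% interval -0.62 to 0.0023). The groups came closest between SCFA 3 and control 1. Gabra2, the alpha subunit of synapses on the axon initial segment, measured 39.6, 31.5 and 29.5 CPM in SCFA 1 to 3, against 40.9, 42.7 and 42.6 CPM in controls 1 to 3, a log2 fold change of -0.33 (SE 0.192, 95% interval -0.74 to 0.084). SCFA 2 and SCFA 3 were low, and SCFA 1 lay just under the controls.

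Gabra5 and Gabra4 with Gabrd belong to receptors outside the synapse that carry tonic inhibition. Gabra5 measured 62.3, 47.6 and 59.4 CPM in SCFA 1 to 3, against 72.9, 64.8 and 61.5 CPM in controls 1 to 3 (-0.24, SE 0.172), and SCFA 1 lay above control 3. Of the 9 tested, Gabra4 alone had a log2 fold change above 0, at 126, 109 and 98.3 CPM in SCFA 1 to 3, against 106, 86.7 and 114 CPM in controls 1 to 3, a log2 fold change of 0.12 (SE 0.161, 95% interval -0.23 to 0.47). Gabrd measured 15.7, 27.5 and 26.6 CPM in SCFA 1 to 3, against 29.2, 18.4 and 23.9 CPM in controls 1 to 3, a log2 fold change of -0.032 (SE 0.273, 95% interval -0.62 to 0.56), with SCFA 1 the lowest and control 1 the highest. The groups overlapped for each of these 3 genes.

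Among the remaining tested subunits, the beta subunit gene Gabrb1 measured 47.6, 56.0 and 61.1 CPM in SCFA 1 to 3, against 61.2, 66.2 and 50.8 CPM in controls 1 to 3, a log2 fold change of -0.11 (SE 0.178, 95% interval -0.50 to 0.27). Gabrg1, a gamma subunit also known from glia, measured 22.6, 22.2 and 23.3 CPM in SCFA 1 to 3, against 22.1, 24.7 and 32.3 CPM in controls 1 to 3, a log2 fold change of -0.21 (SE 0.226, 95% interval -0.70 to 0.27), with control 3 the highest. Gabrg3, the rarest gamma subunit of most brain regions, measured 23.1, 18.6 and 18.6 CPM in SCFA 1 to 3, against 28.4, 25.1 and 19.7 CPM in controls 1 to 3, a log2 fold change of -0.28 (SE 0.238, 95% interval -0.79 to 0.24). The groups overlapped for each of these genes. The other 7 had too few counts to test. Gabre, a single-row gene, had 0 counts in each library, which allows up to 0.207 to 0.346 CPM. Gabrp had 12 counts, Gabrr1, Gabrr2 and Gabrr3, subunits best known from retina, had 5, 13 and 6, and Gabrq had 31. Gabra6, the subunit of cerebellar granule cells, had 0 counts from 2 rows that differ by few bases.

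**Figure D3:**
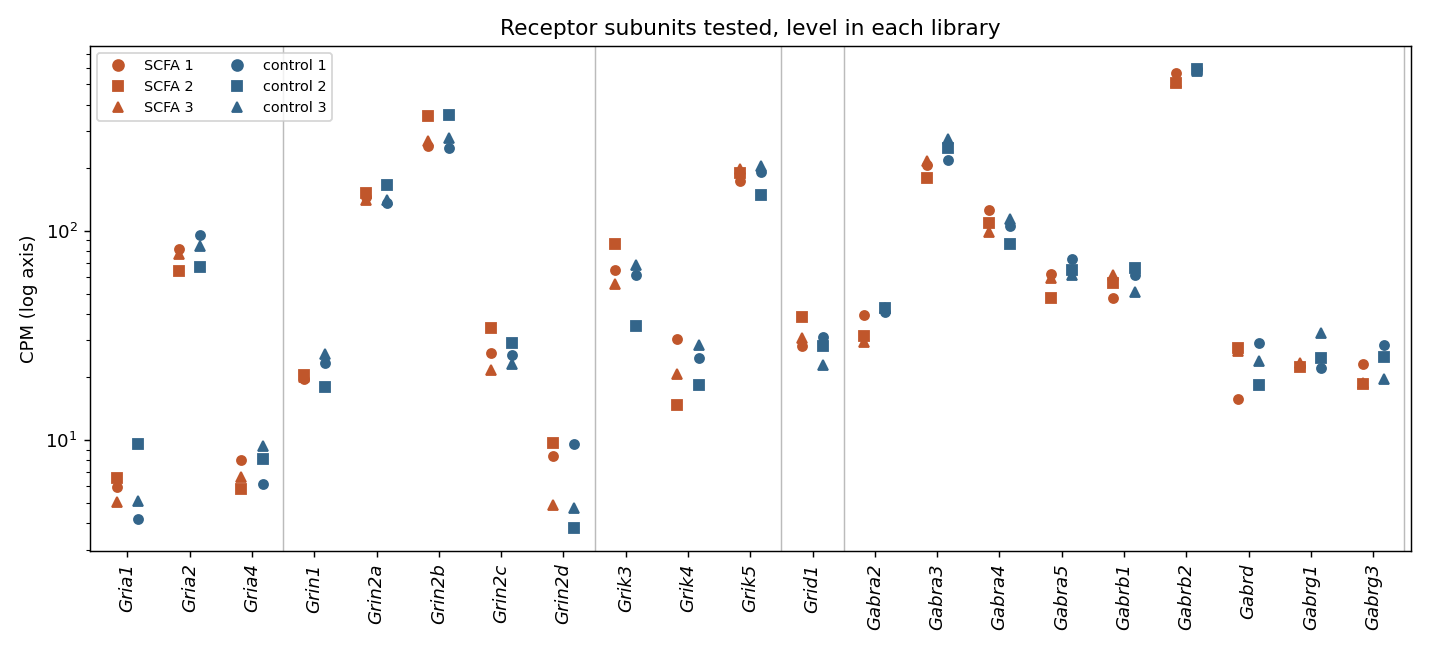
CPM on a log axis of each of the 21 subunits tested in each library, with SCFA libraries left of controls for each gene and families divided by lines. Groups overlap for all but Gabra2, Gabra3 and Gabrb2, whose SCFA values lie below the controls.

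Many GABA-A subunit genes stand in clusters on the genome, which the choice of members did not use. On chromosome 5 (70751047 to 72149572, GRCm38) lie Gabra2, Gabra4, Gabrb1 and Gabrg1, and they ran from -0.33 to 0.12, so that neighbours there had both signs. Gabra5 and Gabrg3 on chromosome 7 (56716463 to 57591016) both lay below 0. On chromosome X (72256926 to 72842607) Gabra3 was the only tested gene of 3, beside Gabre and Gabrq.

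Summed over the 16 GABA-A genes the level was 1106, 999.9 and 1047 CPM in SCFA 1 to 3, against 1170.1, 1167 and 1197 CPM in controls 1 to 3. The controls lay close together (mean 1178 ± 16.6 CPM, SD, n = 3), and the SCFA libraries averaged 1051 ± 53.2 CPM (n = 3), each below the lowest control. Gabrb2 made up 48.2% to 50.9% of these counts in every library. The other 15 genes summed to 543, 492 and 533 CPM in SCFA 1 to 3, against 578, 578 and 621 CPM in controls 1 to 3. With the counts outside the largest row as the only scale, the GABA-A sum was 1972, 1867 and 1886 CPM in SCFA 1 to 3, against 2107, 1986 and 2069.6 CPM in controls 1 to 3, and again the groups did not overlap. With all counts as the scale it was 1139.6, 1214 and 1013 CPM in SCFA 1 to 3, against 1313, 887 and 1149 CPM in controls 1 to 3, and the groups overlapped, with control 2 the lowest. The 17 glutamate receptor genes summed to 844, 975 and 848 CPM in SCFA 1 to 3, against 858, 889 and 895 CPM in controls 1 to 3, with overlapping groups.

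**Figure D4:**
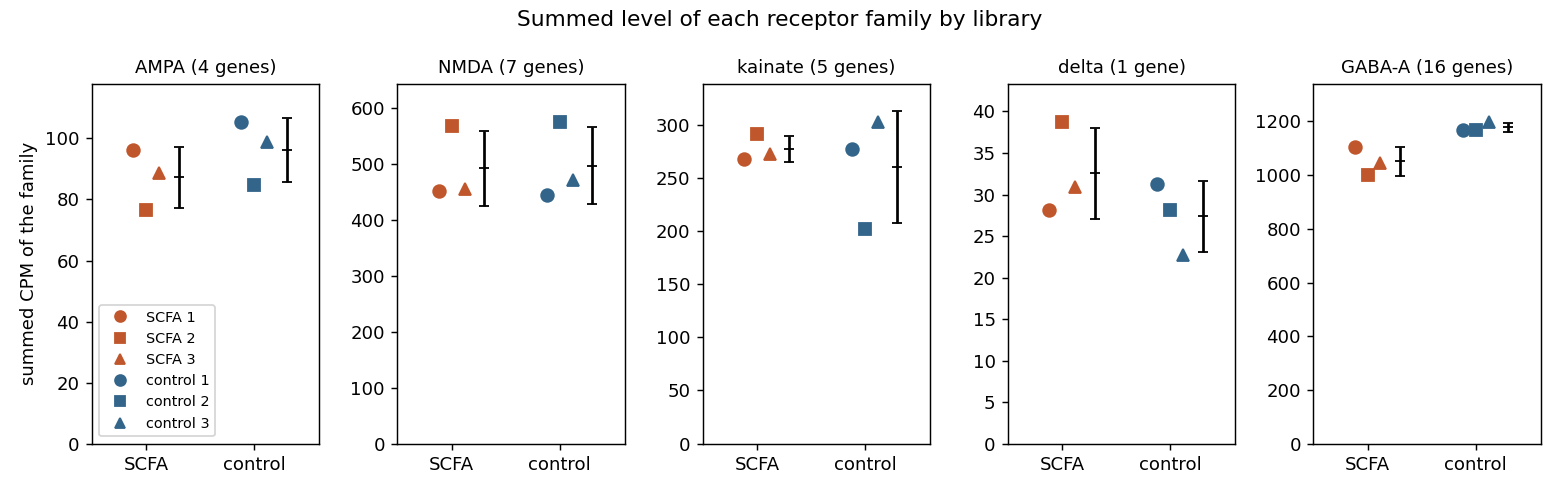
Summed CPM of each receptor family by library, each panel from 0, with the mean and SD of each group in black beside its 3 libraries. The GABA-A sums are 1106, 999.9 and 1047 CPM with SCFA, against 1170.1, 1167 and 1197 CPM in controls, and in the other 4 families the groups overlap.

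Markers of other cells were set beside these sums. The 8 general neuron markers summed to 1189, 1338 and 1164 CPM in SCFA 1 to 3, against 1136, 1269 and 1215 CPM in controls 1 to 3, with overlapping groups. The 9 microglia markers summed to 527, 820.2 and 539.7 CPM in SCFA 1 to 3, against 308, 436 and 334 CPM in controls 1 to 3, and the 7 astrocyte markers to 943, 1479 and 1097 CPM in SCFA 1 to 3, against 660.3, 751 and 771 CPM in controls 1 to 3, and in both lists the lowest SCFA library exceeded the highest control. The 6 markers of oligodendrocyte precursors summed to 63.2, 93.2 and 71.5 CPM in SCFA 1 to 3, against 58.6, 51.4 and 51.4 CPM in controls 1 to 3. Endothelial markers summed to 68.5, 108 and 83.1 CPM in SCFA 1 to 3, against 61.6, 42.9 and 57.6 CPM in controls 1 to 3, with 2 of 6 at 0 in all libraries, and those of hippocampus and thalamus to 66.3, 103 and 73.7 CPM in SCFA 1 to 3, against 58.3, 44.1 and 57.1 CPM in controls 1 to 3, and these lists did not overlap between groups either. Of 6, 4 and 4 markers tested in these 3 lists 0 passed. In each list 2 had an unadjusted p under 0.05 by edgeR, all higher, against 5.76% of all genes tested in either direction. For hippocampus and thalamus these were Rorb and Wfs1. Rorb measured 26.5, 31.6 and 24.8 CPM in SCFA 1 to 3, against 18.2, 15.4 and 22.1 CPM in controls 1 to 3. Wfs1 measured 25.0, 54.7 and 33.3 CPM, against 20.6, 18.2 and 23.1 CPM. They made up most of that sum, which thus speaks for these 2 genes rather than for the list. Of the 4 tested there, 3 lay above 0 and Fibcd1 below, at -1.14. Inhibitory neuron markers, with 2 of 8 at 0 in all libraries, summed to 359.7, 437 and 342 CPM in SCFA 1 to 3, against 387, 347 and 313 CPM in controls 1 to 3, and the groups overlapped, with 0 of 6 tested passing. Of these 6, 4 had a log2 fold change above 0 and 2 below, and 1 of those above had an unadjusted p under 0.05 by edgeR. The part of inhibitory neurons in the values of GABA-A subunits was not tested. No marker of the general neuron, microglia and astrocyte lists was at 0 in all libraries, and none of the 7, 9 and 7 tested passed. At an unadjusted p under 0.05 edgeR gave 0 of 7 neuron, 7 of 9 microglia and 4 of 7 astrocyte markers, against the same 5.76% of all genes. Those of microglia and astrocytes were higher with SCFA. The part of the pancreas transcripts in the controls was not tested. Whether a change in cell make-up plays a part in the lower GABA-A values was not tested, and fewer cells of a type cannot be told apart from less RNA per cell in such tissue.

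**Figure D5:**
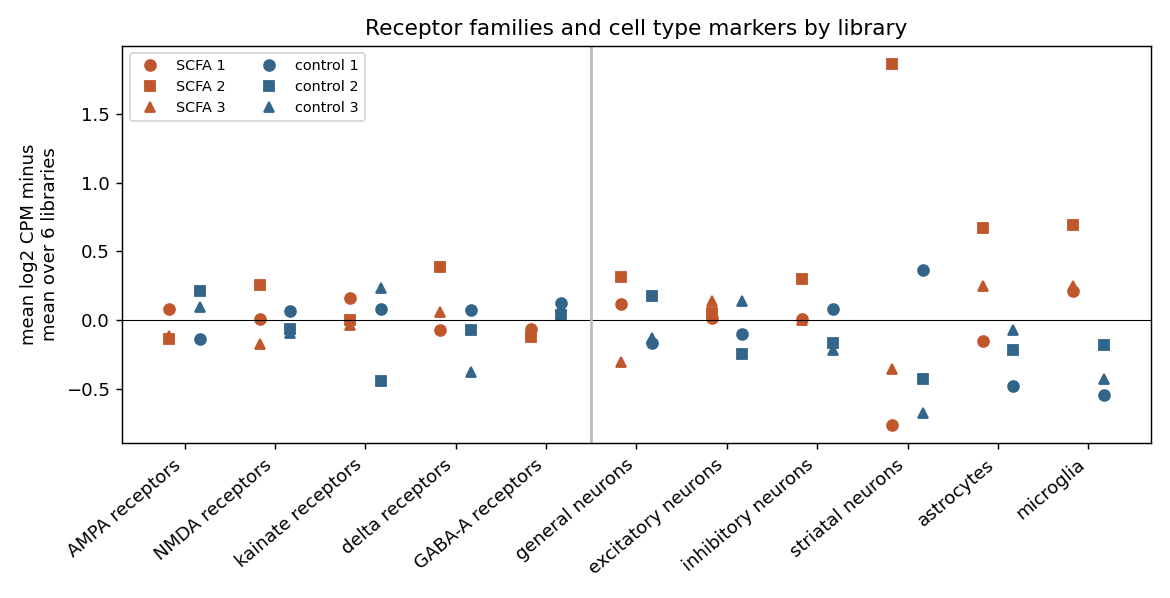
Mean log2 CPM of the tested genes of each receptor family and of marker lists, minus their mean over the 6 libraries, with SCFA left of control. SCFA 2 stands at 1.87 for striatal markers, and the GABA-A scores lie between -0.13 and -0.062 with SCFA and between 0.040 and 0.13 in controls.

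The balance between paired subunits was compared within libraries, where scaling plays no part. For 2 pairs the log2 ratio of counts was compared by an exact two-sided permutation test, whose smallest possible p is 0.1 with 3 against 3, so that no pair could pass 0.05. The Grin2a to Grin2b ratio, which rises as NMDA receptors mature, averaged -0.99 ± 0.207 in SCFA libraries and -0.99 ± 0.124 in control libraries (SD, n = 3 each, exact permutation p = 1). For Gria1 to Gria2 it averaged -3.65 ± 0.338 in SCFA libraries and -3.77 ± 0.868 in control libraries (SD, n = 3 each, exact permutation p = 0.8). The adjusted p over the 2 pairs was 1 for each. Since rows and lengths differ between subunits, these ratios were compared between libraries and are no amounts of 1 subunit against another. Gria1 and Gria2 have several rows each, and their ratio depends on how rows are counted. The SCFA minus control difference was 0.12 with rows summed and 0.38 with the row with most counts. Whether use of rows plays a part in it was not tested.

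Of 77 partner genes of the receptors, 61 were tested and none passed in edgeR, where 0.0835% of all genes tested did. At an unadjusted p under 0.05 there were 4 higher and 2 lower with SCFA of these 61. Over all genes tested the share at that cut was 5.76%, both directions together. The 2 astrocyte glutamate transporter genes had the smallest p-values of the higher ones. Slc1a3 measured 305, 521 and 388 CPM in SCFA 1 to 3, against 213, 238 and 249 CPM in controls 1 to 3, a log2 fold change of 0.80 (adjusted p = 0.361, SE 0.179), and it passed with DESeq2 (adjusted p = 0.0066). Slc1a2 measured 245, 333 and 319 CPM in SCFA 1 to 3, against 181, 187 and 243 CPM in controls 1 to 3, a log2 fold change of 0.55 (adjusted p = 0.864, SE 0.164). For both, each SCFA library lay above each control, as did the astrocyte marker sum to which they belong. Such a separation held for 6.42% of all genes tested, and these 2 were picked by their p-values. Of 14 genes for glutamate and GABA synthesis and transport, 9 lay above 0 (median 0.28).

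Scaffolds of the glutamate receptors gave the 2 on the lower side. Dlgap1, a protein of the postsynaptic density, measured 5.23, 6.68 and 7.38 CPM in SCFA 1 to 3, against 10.2, 21.9 and 12.4 CPM in controls 1 to 3, a log2 fold change of -1.20 (adjusted p = 0.864, SE 0.363), and Homer1, which links receptors to calcium stores, 14.5, 11.5 and 18.3 CPM in SCFA 1 to 3, against 20.7, 21.9 and 23.3 CPM in controls 1 to 3, a log2 fold change of -0.57 (adjusted p = 0.864, SE 0.257). Each SCFA library lay below each control for both, and both genes have 4 rows. Such a separation held for 5.74% of all genes tested, and these 2 were picked by their p-values. Of the 14 scaffold genes tested, 7 lay above 0 and 7 below. Dlg4, the main scaffold of excitatory synapses, had 0 counts in all 6 libraries from 2 rows, and this 0 was not read as absence.

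Auxiliary subunits of AMPA and kainate receptors had a median of 0.15 over 11 tested of 18. Shisa6 measured 12.2, 16.9 and 9.47 CPM in SCFA 1 to 3, against 4.54, 5.66 and 9.53 CPM in controls 1 to 3, a log2 fold change of 0.97 (adjusted p = 0.864, SE 0.383), and Cacng8, a transmembrane regulator of AMPA receptors, 30.8, 34.8 and 23.1 CPM in SCFA 1 to 3, against 25.0, 9.12 and 25.7 CPM in controls 1 to 3, a log2 fold change of 0.56 (adjusted p = 0.889, SE 0.335). Without control 2 the value of Cacng8 was 0.22. The groups overlapped for both. Of the metabotropic receptors Gabbr2, a GABA-B receptor subunit, had a log2 fold change of 0.21 (adjusted p = 0.902, SE 0.147) and Grm7 of -0.20 (adjusted p = 0.917, SE 0.181), among 7 tested of 10. Anchors of GABA-A receptors had a median of 0.015 over 11 tested of 12, with the adhesion proteins Nlgn2 at 0.27 (adjusted p = 0.896, SE 0.174) and Nlgn3 at 0.26 (adjusted p = 0.910, SE 0.209). Without SCFA 2 these were 0.14 and 0.0032. Gphn, the gene of the GABA-A receptor scaffold gephyrin, has 2 rows. It had 48, 15 and 27 counts in SCFA 1 to 3, against 47, 0 and 15 in controls 1 to 3. These are too few for a narrow estimate, with a log2 fold change of 0.57 (adjusted p = 0.961, SE 1.07). They were not read as low expression of the gene.

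The chloride gradient that sets the direction of GABA-A current depends on Slc12a5, which exports chloride from neurons, and Slc12a2, which imports it. Slc12a5 measured 286, 343 and 294 CPM in SCFA 1 to 3, against 296, 261 and 292 CPM in controls 1 to 3, a log2 fold change of 0.12 (adjusted p = 0.947, SE 0.135). Slc12a2 measured 105, 86.9 and 93.1 CPM in SCFA 1 to 3, against 123, 107 and 103 CPM in controls 1 to 3, a log2 fold change of -0.22 (adjusted p = 0.899, SE 0.151). The groups overlapped for both. Of the glycine receptor genes, Glra2 had a log2 fold change of -0.071 (adjusted p = 0.986, SE 0.344) and Glra3 of -0.62 (adjusted p = 0.910, SE 0.491), and the other 3 of 5 were not tested.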

How the data were processed

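Total RNA from snap-frozen cortex was made into libraries with an RNA-Seq kit meant for degraded RNA, per the labels' protocols. The submitters' processing notes name CASAVA 1.8.2, featureCounts and mm10. Which aligner was run, whether strand was used and how reads common to several transcripts were handled is not stated by the labels. The deposited values are raw read counts per RefSeq transcript, with 34755 rows and a column for each of 6 libraries. Here 34419 rows (99.033%) were paired with symbols through a reference list of genes with their RefSeq transcripts, and counts were summed per symbol. GENCODE M21 served only for the transcript models and exon sequences of the members. Without strand, reads of a gene and of an antisense partner cannot be told apart. Genes were filtered with edgeR 4.0.16 (filterByExpr, minimum count 10, minimum total 15), scaled with TMM factors and fitted with edgeR's quasi-likelihood test of SCFA against control. P-values were adjusted by Benjamini-Hochberg over the 11969 genes tested, with a threshold of 0.05. CPM use TMM-scaled library sizes, log2 ratios use counts plus 0.5, and scores use a prior count of 2. Total counts of 9275252 to 13862756 per library set the precision, and 3 counts (0.207 to 0.346 CPM) was taken as the limit of detection. The alternatives were DESeq2 1.42.0, limma-voom (limma 3.58.1), other scalings and filters, the row with most counts per gene, removal of structural RNA, the replicate number as a block, and leaving out libraries. The genes named are all members, the 2 partner genes of each list with the smallest p, and Dlg4, Gphn, Slc12a2, Slc12a5, Penk, Drd1 and Adora2a. Rorb, Wfs1 and Fibcd1 were named after seeing their values. Some genes of the family and of the partner lists are not reported here. Members and lists were chosen with earlier results of these data known.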

Additional observations from a re-analysis of the deposited data

How the results depend on the processing

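No receptor subunit passed an adjusted p of 0.05 under any of the 16 alternatives, and the smallest adjusted p among them was 0.685 (DESeq2, Gabra3). The count of subunits at an unadjusted p under 0.05 was 1 of 21, Gabra3, with DESeq2 size factors (against 5.80% of all genes), DESeq2 (6.46%), limma-voom (6.73%) and structural RNA removed (5.84%). It was 0 to 1 with 1 library left out, 1 without control 1 (6.15%). Of partner genes, 1 (Slc1a3) passed with DESeq2 and with no filter. Between 7 and 8 of 9 GABA-A subunits lay below 0 with 1 library left out, and 5 of 9 with library totals. With no filter 9 of 14 did.

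Library totals moved the median of NMDA receptor genes to 0.22 and that of GABA-A receptor genes to -0.033. The GABA-A median ran from -0.25 to -0.15 with 1 library left out. The AMPA median ran from -0.31 to -0.090 with 1 library left out, lowest without control 1. Signs turned with library totals, to 0.17 for Gria1, 0.19 for Grin2a, 0.22 for Grin2b, 0.0057 for Grik4, 0.071 for Gabrb1, 0.025 for Gabrb2, 0.12 for Gabrd and 0.083 for Glra2. Without control 2 and SCFA 2, an alternative chosen after seeing the data, they turned to 0.24 for Gria1, 0.047 for Grin2a, -0.024 for Grin2c, -0.12 for Grin2d, -0.11 for Grik3, -0.10 for Grik5 and -0.020 for Slc12a5. With limma-voom the sign turned to 0.043 for Gria1 and 0.0093 for Grin2b. With 1 library left out log2 fold changes that turned ran from -0.31 to 0.34 for Gria1, -0.059 to 0.078 for Grin2a, -0.17 to 0.15 for Grin2b, -0.11 to 0.23 for Grin2c, -0.42 to 0.10 for Grik4, -0.090 to 0.14 for Grik5, -0.19 to 0.19 for Gabrd, -0.27 to 0.21 for Glra2 and -0.23 to 1.79 for Gphn. Others kept their sign but moved, from 0.095 to 0.85 for Grin2d, 0.093 to 0.52 for Grik3, -0.27 to -0.021 for Gria2, -0.32 to -0.039 for Gabrg1, 0.22 to 0.79 for Cacng8, 0.14 to 0.41 for Nlgn2, 0.0032 to 0.44 for Nlgn3 and -0.77 to -0.24 for Glra3. Ratio differences ran from -0.081 to 0.12 for Grin2a to Grin2b and -0.24 to 0.60 for Gria1 to Gria2. The cause of these moves was not tested.

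Replicate numbers showed no sign of pairing the libraries. Same-numbered libraries had correlations of their deviations from the group means of -0.0021, 0.010 and -0.0052, and only SCFA 2 correlated best with its own number. Deviations from a mean of 3 libraries sum to 0 within a group, so these values cannot show that the animals were unpaired. The replicate block called 0 subunits, and 1 of 21, Gabra3, had an unadjusted p under 0.05, against 5.67% of all genes. It called 10 genes higher and 12 lower of all genes, against 1 and 9 without it. Low counts limit what can be read of the 12 subunits that were not tested.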
